A study of Arabidopsis thaliana with 24 samples.

Results

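The 10 alpha-expansins described here, measured in developing seeds of Arabidopsis thaliana, are EXPA1 (AT1G69530_at), EXPA2 (AT5G05290_at), EXPA3 (AT2G37640_at), EXPA4 (AT2G39700_at), EXPA5 (AT3G29030_at), EXPA6 (AT2G28950_at), EXPA8 (AT2G40610_at), EXPA9 (AT5G02260_at), EXPA10 (AT1G26770_at) and EXPA15 (AT2G03090_at). They were taken as a list of probe set identifiers, and all 10 were present among the 27827 loci of the value table. Another 15 alpha-expansins, 10 beta-expansins and expansin-like genes, 33 xyloglucan endotransglucosylase/hydrolases (XTH) and 11 plasma membrane proton pumps (AHA) were used for comparison. All samples were seeds of the ecotype Col-0, for which the labels give no mutation and no treatment. Seeds were taken at 12, 15, 18 and 20 days after pollination (DAP), and RNA was measured at every stage as total RNA and as polysomal RNA, the pool bound to groups of translating ribosomes. Each of the 8 groups of fraction and stage held 3 arrays, and each replicate came from a bulk of several plants of a blocked planting. The labels name no dissected tissue, and they do not say whether the total and polysomal RNA of one replicate number came from the same seeds.

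Expansins are secreted proteins that let the cell wall slip under tension without cutting its polymers, and they work best when the wall is acid. Proton pumps of the AHA family acidify the wall, and XTH enzymes cut and rejoin xyloglucan, the polymer that links cellulose fibrils. Growth of a seed needs loosened walls in the coat, the endosperm and the embryo, and wall loosening in the endosperm is also known from germination. Within the family, EXPA1 is known from guard cells, EXPA2 from the endosperm of germinating seeds, EXPA5 from growth promoted by brassinosteroids and EXPA10 from the growth of leaves and petioles. The comparisons below ask how each gene's transcript changed as the seeds matured, and whether the transcript on polysomes followed the total.

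Levels are log2 RMA values, on which a step of 1 is a doubling, and a percentile gives a gene's place among all loci of its own array, which also depends on how well its probes bind. The 6 arrays made at 12 DAP differed in kind from the 18 others. Their levels spread less over loci (SD of 1.39 to 1.71 against 2.13 to 2.43), and their replicates correlated less well (0.739 to 0.851 against 0.955 to 0.99, across loci). The median SD between replicates was 0.532 to 0.567 at 12 DAP and 0.175 to 0.301 later. Of 4 embryo markers the storage globulin CRA1 and the oil body protein OLEO1 lay at or above the 99.8th percentile in the mean of every group. The regulator ABI3 lay between the 91.5th and the 98.2nd, and LEC1, a regulator of the early embryo, between the 67.2nd and 74.9th at 12 DAP and the 19.9th and 31.1st later. No 2 arrays held identical values.

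Over the 8 groups of both fractions, all of the 10 transcripts but EXPA3 had their highest group mean at 12 DAP, as the plot of levels by stage shows. Within total RNA alone the highest mean of EXPA15 was at 15 DAP (8.23, against 7.9 at 12 DAP). By its place among the loci of an array, EXPA6 did not stand highest at 12 DAP. In total RNA it lay at the 43.7th percentile at 12 DAP and at the 48.3rd and 47.5th at 15 and 20 DAP. In polysomal RNA it lay at the 28.5th at 12 DAP and the 31.7th at 18 DAP. In total RNA 6 of the 10 group means lay above the 75th percentile of all loci at 12 DAP, 1 at 15 DAP and 0 at 18 and 20 DAP. In polysomal RNA these numbers were 4, 1, 0 and 0. The gene above it at 15 DAP was EXPA15 in both fractions, at the 94th percentile in each. The median of the 10 group means from 12 to 20 DAP was 5.6, 4.175, 3.87 and 3.68 in total RNA and 5.01, 3.2, 3.115 and 2.985 in polysomal RNA. The distance between a gene's highest and lowest group mean was largest for EXPA10 (4.37) and smallest for EXPA3 (1.77).

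**Figure D1:**
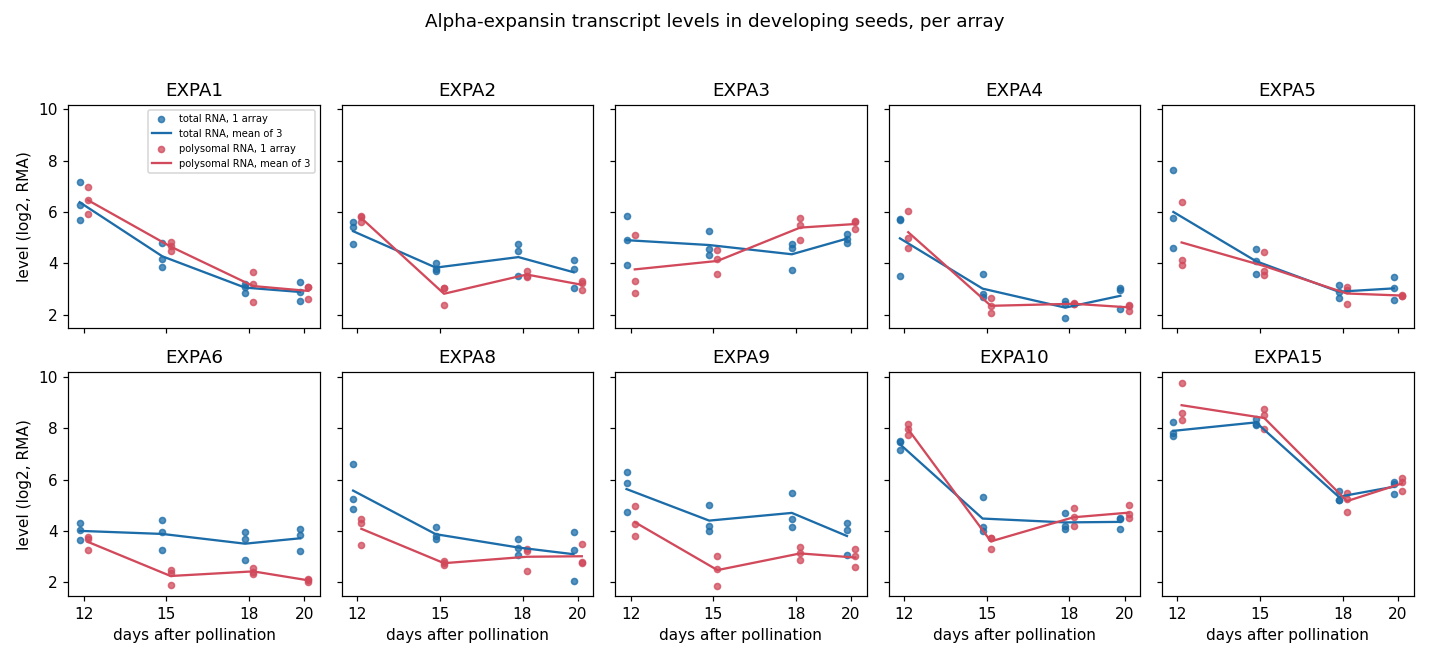
Level of each alpha-expansin (log2 RMA value) against days after pollination, with 1 point per array and a line through the mean of 3 arrays, blue for total and red for polysomal RNA. EXPA10 drops between 12 and 15 DAP in both fractions, EXPA15 between 15 and 18 DAP, and the highest mean of EXPA3 is at 20 DAP in polysomal RNA.

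EXPA10 had the largest change of the 10 between 12 and 15 DAP. In total RNA its levels were 7.46, 7.52 and 7.17 at 12 DAP and 3.98, 5.31 and 4.15 at 15 DAP. In polysomal RNA they were 7.74, 7.99 and 8.16 at 12 DAP and 3.73, 3.3 and 3.74 at 15 DAP. The stages did not overlap in either fraction. EXPA10 fell by 2.91 ± 0.40 (log2 difference ± SE, n = 3 arrays per group, limma adjusted p = 0.00053), which is 7.49-fold, in total RNA, and by 4.37 ± 0.31 (adjusted p = 1.8e-05), which is 20.7-fold, in polysomal RNA. The labels name no tissue dissected from the seeds. Fewer cells that make a transcript and less of it per cell therefore cannot be told apart, here and in every result below.

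EXPA2 and EXPA4 had larger estimated falls in polysomal than in total RNA over the same step, but the fractions were not shown to differ in this. The change of the polysomal to total difference was -1.52 ± 0.47 for EXPA2 (limma adjusted p = 0.096) and -0.92 ± 0.76 for EXPA4 (adjusted p = 0.53). EXPA2 stood at 5.86, 5.81 and 5.6 in polysomal RNA at 12 DAP and at 3.02, 3.05 and 2.36 at 15 DAP. It fell by 2.94 ± 0.32 there (adjusted p = 1e-04), which is 7.7-fold, and by 1.42 ± 0.34 (adjusted p = 0.0092) in total RNA, without overlap of the stages in either fraction. EXPA4 stood at 6.05, 5 and 4.6 in polysomal RNA at 12 DAP and at 2.63, 2.32 and 2.05 at 15 DAP. It fell by 2.88 ± 0.41 (adjusted p = 0.00038), and the stages did not overlap. In total RNA its 12 DAP levels were 5.68, 5.73 and 3.51, the last of which lay below the highest 15 DAP array at 3.59. The fall there was 1.96 ± 0.58 (adjusted p = 0.023). That call ended without total 15 DAP replicate 1 or 3 or total 12 DAP replicate 1 or 2 (adjusted p = 0.073 to 0.084), after repeated quantile normalization (0.13) and under cyclic loess (0.25). Cyclic loess also ended the call of EXPA2 in total RNA, at -0.88 (adjusted p = 0.12).

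EXPA1, known from guard cells, fell by similar amounts in both fractions. Its levels in total RNA were 5.7, 6.26 and 7.18 at 12 DAP and 3.86, 4.79 and 4.16 at 15 DAP. In polysomal RNA they were 6.99, 6.47 and 5.93, then 4.46, 4.66 and 4.81. EXPA1 fell by 2.11 ± 0.44 in the total fraction (adjusted p = 0.0044) and by 1.81 ± 0.35 in the polysomal one (adjusted p = 0.0018). The stages did not overlap in either fraction, and no alternative setting or left-out array ended either call.

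EXPA8 fell in both fractions, EXPA5 was called in total RNA alone and EXPA9 in polysomal RNA alone. For neither EXPA5 nor EXPA9 were the fractions shown to differ in their change. The change of the polysomal to total difference was 1 ± 0.97 for EXPA5 (limma adjusted p = 0.60) and -0.64 ± 0.65 for EXPA9 (adjusted p = 0.63). EXPA5 was uneven between replicates at 12 DAP, with 7.65, 5.75 and 4.59 in total RNA and 4.11, 6.39 and 3.93 in polysomal RNA. At 15 DAP it lay between 3.59 and 4.56 in total and between 3.56 and 4.42 in polysomal RNA. The stages did not overlap in total RNA, where EXPA5 fell by 1.92 ± 0.66 (adjusted p = 0.043), and they overlapped in polysomal RNA, where the difference was -0.92 ± 0.61 (adjusted p = 0.19). The call in total RNA ended without any 1 of 5 arrays, all but total 12 DAP replicate 3 (adjusted p = 0.061 to 0.13), with the largest move without total 12 DAP replicate 1 (to -1.09). It ended on quantile values (0.099), under cyclic loess (0.27) and after median centring (0.081) too.

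EXPA8 fell by 1.7 ± 0.46 in total RNA (adjusted p = 0.016), from 6.61, 4.85 and 5.26 to 4.17, 3.67 and 3.79. It fell by 1.34 ± 0.35 in polysomal RNA (adjusted p = 0.0078), from 3.46, 4.31 and 4.48 to 2.81, 2.66 and 2.74. EXPA9 fell by 1.87 ± 0.42 in polysomal RNA (adjusted p = 0.0036), from 4.96, 3.8 and 4.25 to 1.86, 2.53 and 3.01. None of these 3 pairs of groups overlapped. In total RNA EXPA9 changed by -1.23 ± 0.46, short of the threshold (adjusted p = 0.054), and its stages overlapped. It passed without total 12 DAP replicate 1 (-1.67, adjusted p = 0.012), in 1 model over all 24 arrays (0.018) and without the dimmest loci (0.048). The call of EXPA8 in total RNA ended without total 15 DAP replicate 2 (adjusted p = 0.058) or 3 (0.052) and under cyclic loess (0.24). Both polysomal calls ended on quantile values (adjusted p = 0.44 for EXPA8 and 0.19 for EXPA9) and under cyclic loess (0.47 and 0.053).

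EXPA3, EXPA6 and EXPA15 had the smallest differences of the 10 in total RNA. EXPA15 stood at 7.68, 8.23 and 7.8 at 12 DAP and at 8.12, 8.38 and 8.18 at 15 DAP, a difference of 0.32 ± 0.32 (adjusted p = 0.43, 95% confidence interval of -0.39 to 1.03). In polysomal RNA it stood at 8.59, 8.34 and 9.78, then at 8.74, 8.5 and 7.98 (-0.50 ± 0.43, adjusted p = 0.31). The stages overlapped in both fractions. Cyclic loess gave EXPA15 other values, -1.23 in total (adjusted p = 0.025) and -2.54 in polysomal RNA (adjusted p = 0.0039). EXPA3 differed by -0.19 ± 0.49 in total and 0.34 ± 0.56 in polysomal RNA (adjusted p = 0.77 and 0.60), with 12 DAP replicates as far apart as 2.84 and 5.12 in polysomal RNA. Without the highest of these, polysomal 12 DAP replicate 2, the polysomal difference was 1.01 and passed the test (adjusted p = 0.040). EXPA6 differed by -0.12 ± 0.39 in total RNA (adjusted p = 0.81). In polysomal RNA it fell by 1.32 ± 0.32 (adjusted p = 0.0056), from 3.77, 3.26 and 3.67 to 2.49, 2.34 and 1.9, while its mean position among the loci of an array went from the 28.5th to the 23.4th percentile. The calls of EXPA6 and EXPA8 in polysomal RNA ended after median centring (adjusted p = 0.059 and 0.073), and that of EXPA6 also after quantile normalization (-0.21, adjusted p = 0.72) and cyclic loess (-0.14, adjusted p = 0.80).

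Of the 10 alpha-expansins 6 were thus called lower and 0 higher in total RNA from 12 to 15 DAP, where 19.4% of all loci were called lower and 20.5% higher. In polysomal RNA 7 were lower and 0 higher, against 39.4% and 29.4% of all loci. The median change of the 10 was -1.56 in total and -1.58 in polysomal RNA, beside -0.32 and -0.51 over all loci. Set against the median locus, EXPA10 differed by -2.59 and -3.86, EXPA1 by -1.79 and -1.3, and EXPA2 by -1.10 and -2.43 in total and polysomal RNA. EXPA15 then differed by 0.64 and 0.02. The calls of EXPA1 and EXPA10 in both fractions, and of EXPA2 and EXPA4 in polysomal RNA, held under every alternative run, left-out arrays included.

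**Figure D2:**
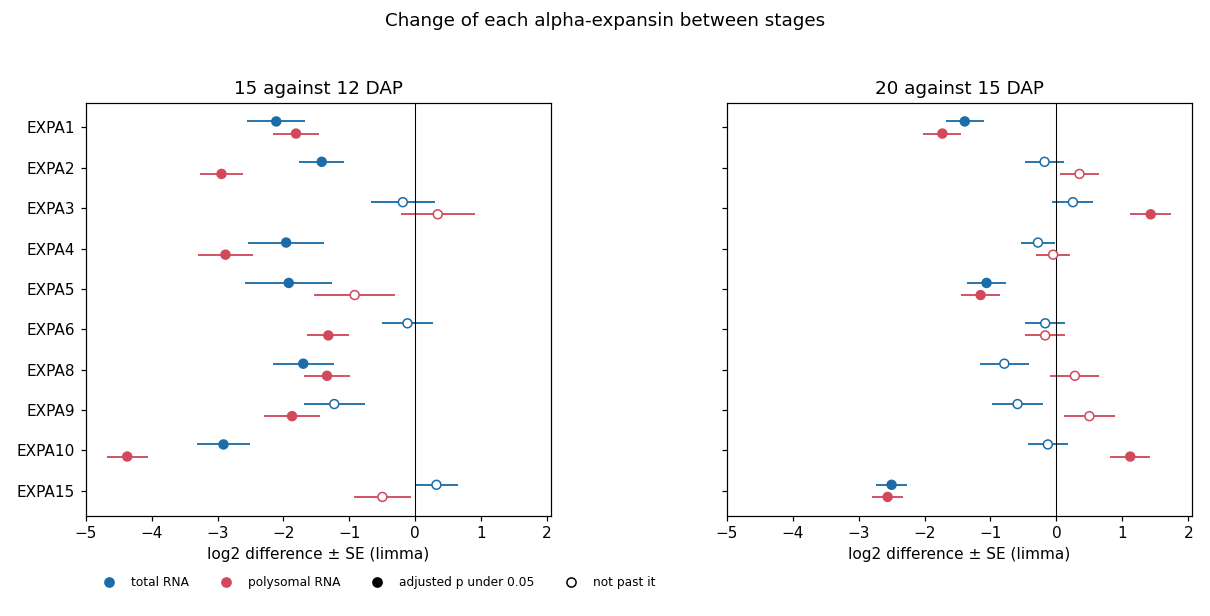
Change of each alpha-expansin on the log2 scale (point) with its SE (line) from limma, at 15 against 12 DAP on the left and 20 against 15 DAP on the right, blue for total and red for polysomal RNA, filled where the adjusted p was under 0.05. At the first step 6 genes in total and 7 in polysomal RNA are filled, all to the left of 0, and at the second EXPA3 and EXPA10 are filled to the right in polysomal RNA.

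How bright a locus was went with its call over this step, a description added after the values had been seen. Loci were put into 4 equal parts by their mean level over the 24 arrays. In polysomal RNA 76.1% and 62.8% of the loci in the 2 dimmer parts were called lower, against 16.2% and 2.64% in the 2 brighter ones. In total RNA the shares were 24%, 33.2%, 15.4% and 5.1%. EXPA4, EXPA5, EXPA6, EXPA8 and EXPA9 belong to the second dimmest part, EXPA1, EXPA2, EXPA3 and EXPA10 to the third and EXPA15 to the brightest. EXPA10, EXPA1 and EXPA2 were thus called lower in a part where 16.2% of loci were in polysomal RNA, and EXPA4, EXPA6, EXPA8 and EXPA9 in one where 62.8% were. EXPA7 and EXPA18, which act in root hairs and were singled out after their values were seen, stood higher at 12 than at 15 DAP in total RNA (4.57 and 3.88, then 2.59 and 2.39). They belong to the 15 other alpha-expansins, of which 8 fell, 0 rose and 7 had no call there. The share that the scaling has in these falls was not tested beyond the alternatives named.

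**Figure D3:**
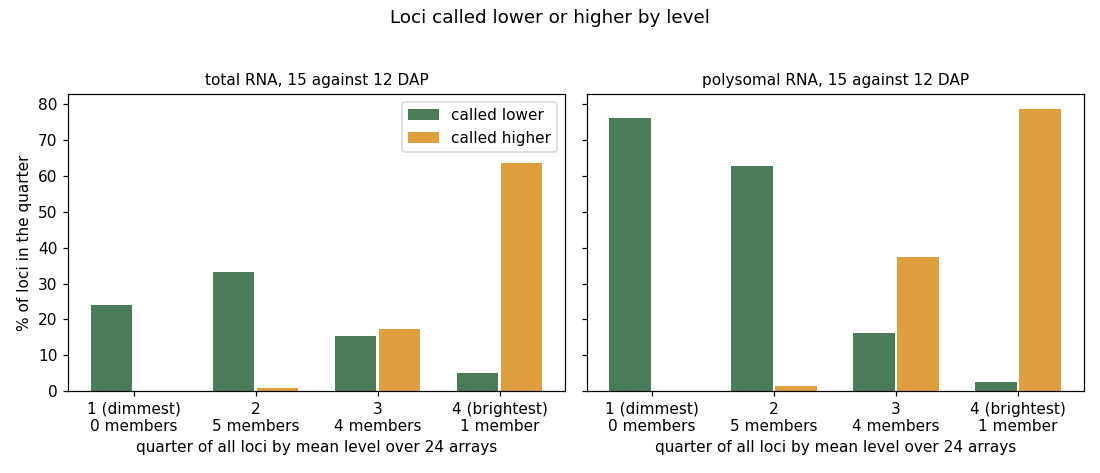
Percent of all loci called lower (green) or higher (orange) at 15 against 12 DAP, for total RNA on the left and polysomal RNA on the right, in 4 equal parts of the loci by mean level over the 24 arrays. The numbers under the bars count the alpha-expansins in each part (0, 5, 4 and 1), and lower calls are most frequent in the 2 dimmer parts. The mean level includes the arrays compared, so the parts are not independent of the calls.

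Markers of seed tissues moved over the same step. Of the 4 embryo markers LEC1 fell (-2.08 in total and -3.04 in polysomal RNA) and ABI3 rose (2.71 and 2.48, with no call under cyclic loess in either fraction). The log2 of the summed level of the 4 was 12.9 to 13.21 at 12 DAP and 13.44 to 13.53 at 15 DAP in total RNA. In polysomal RNA it went the other way, from 13.39 to 13.44 at 12 DAP to 13.23 to 13.28 at 15 DAP. CRA1 and OLEO1, the brightest of the 4 and without a call on the deposited values, weigh most in these sums. Under cyclic loess 3 of the 4 embryo markers, CRA1 and OLEO1 among them, were called lower and 0 higher in each fraction. The median change of the 4 was then -1.54 in total and -1.99 in polysomal RNA. All 5 seed coat flavonoid markers and 5 of 6 mucilage markers fell in total RNA, and 4 of 5 and 4 of 6 in polysomal RNA. The log2 of the summed level of the flavonoid markers was 10.64 to 11.15 in the total RNA of 12 DAP and 6.46 to 6.91 at 15 DAP, and that of the mucilage markers 9.99 to 10.37 and 7.72 to 8.03. Of 4 endosperm markers 3 fell and EPR1 rose in both fractions, with EPR1 turned under cyclic loess (-1.24 in total and -1.34 in polysomal RNA). The summed level was 10.4 to 10.77 and 11.56 to 11.62 in total RNA, a rise that rests on EPR1 alone, as the other 3 fell. Of 4 genes listed as markers of the silique wall, a fruit tissue, 2 (SHP1 and SHP2) fell in total RNA, where FUL and IND had no call. In polysomal RNA all 4 fell. Their summed level was 6.31 to 8.43 and 4.94 to 5.26 in total RNA. Whether these genes were read from the wall or from the seed was not tested. None of the defining markers was listed at 0, but this does not show that they were detected, since the lowest mean level of any locus was 1.17. The part of a changing tissue makeup in the alpha-expansin falls was not tested.

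After 15 DAP the largest change was that of EXPA15. Its levels in total RNA were 8.12, 8.38 and 8.18 at 15 DAP, 5.57, 5.19 and 5.22 at 18 DAP, and 5.82, 5.92 and 5.43 at 20 DAP. In polysomal RNA they were 8.74, 8.5 and 7.98, then 5.49, 5.23 and 4.75, then 5.91, 6.08 and 5.56. Every array of 18 and 20 DAP lay below every array of 12 and 15 DAP. From 15 to 20 DAP EXPA15 fell by 2.50 ± 0.23 in total RNA (limma adjusted p = 2.7e-06) and by 2.56 ± 0.23 in polysomal RNA (adjusted p = 2.5e-06), which is 5.67-fold and 5.89-fold. The change of its polysomal to total difference over these stages was -0.05 ± 0.32 (adjusted p = 0.97, 95% interval of -0.74 to 0.63). At 18 DAP it stood lower still, with differences from 15 DAP of -2.90 ± 0.23 in total (adjusted p = 8e-07), which is 7.46-fold, and -3.25 ± 0.23 in polysomal RNA (adjusted p = 3.2e-07), which is 9.49-fold. These comparisons of 18 with 15 DAP were added after the levels had been seen, and all comparisons with 15 DAP share its arrays.

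EXPA1 and EXPA5 fell from 15 to 20 DAP in both fractions. EXPA1 stood at 3.2, 3.09 and 2.85 in total RNA at 18 DAP and at 2.86, 2.53 and 3.25 at 20 DAP. In polysomal RNA it stood at 2.48, 3.18 and 3.67, then at 3.06, 3.07 and 2.62. All of these lay below its 15 DAP arrays, and from 15 to 20 DAP EXPA1 fell by 1.39 ± 0.29 in total (adjusted p = 0.0031) and by 1.73 ± 0.29 in polysomal RNA (adjusted p = 8e-04). EXPA5, named above for growth under brassinosteroids, had polysomal levels of 4.42, 3.68 and 3.56 at 15 DAP and of 2.75, 2.73 and 2.73 at 20 DAP. It fell by 1.06 ± 0.29 in total (adjusted p = 0.016) and by 1.15 ± 0.29 in polysomal RNA (adjusted p = 0.014), without overlap in either fraction. The calls of EXPA5 ended in a model over all 24 arrays (adjusted p = 0.33 and 0.41). In total RNA they ended without total 20 DAP replicate 3 (0.075) or total 15 DAP replicate 2 (0.077), and in polysomal RNA without polysomal 15 DAP replicate 1 (0.073).

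EXPA3 and EXPA10 rose in polysomal RNA after 15 DAP. EXPA3 stood there at 4.18, 4.52 and 3.58 at 15 DAP, at 5.78, 5.49 and 4.9 at 18 DAP, and at 5.59, 5.64 and 5.35 at 20 DAP. Both later groups lay above the 15 DAP arrays, and EXPA3 rose by 1.43 ± 0.31 from 15 to 20 DAP (adjusted p = 0.0055), which is 2.7-fold. In total RNA its arrays at these stages overlapped, with a difference of 0.25 ± 0.31 (adjusted p = 0.63). EXPA10 stood at 3.73, 3.3 and 3.74 in polysomal RNA at 15 DAP, at 4.88, 4.53 and 4.18 at 18 DAP, and at 4.65, 4.99 and 4.49 at 20 DAP. It rose by 1.12 ± 0.30 from 15 to 20 DAP (adjusted p = 0.021), which is 2.17-fold, and stayed far below its 12 DAP levels. In total RNA the difference was -0.13 ± 0.30 (adjusted p = 0.82). The call of EXPA3 ended in the model over all 24 arrays (adjusted p = 0.11). That of EXPA10 ended on quantile values (0.74, adjusted p = 0.12) and without polysomal 20 DAP replicate 1 (adjusted p = 0.056), polysomal 20 DAP replicate 2 (0.095) or polysomal 15 DAP replicate 2 (0.091).

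From 15 to 20 DAP 3 of the 10 were therefore called lower and 0 higher in total RNA, where 7.7% of all loci were called lower and 11.5% higher. In polysomal RNA 3 were lower and 2 higher, against 5.4% and 7.18% of all loci. The median change of the 10 was -0.44 in total and 0.11 in polysomal RNA, beside 0 and -0.01 over all loci. The genes without a call in either fraction were EXPA2, EXPA4, EXPA6, EXPA8 and EXPA9. Their differences lay between -0.79 and -0.17 in total RNA and between -0.17 and 0.50 in polysomal RNA. EXPA8 had -0.79 ± 0.37 in total RNA (adjusted p = 0.16), with 20 DAP arrays of 2.06, 3.25 and 3.96, and without the last of them, total 20 DAP replicate 3, it passed the test at -1.22 (adjusted p = 0.025). Over the same stages 3 of 5 flavonoid markers fell in total and 2 in polysomal RNA. SHP1 of the silique wall list, EPR1 of the endosperm list and ABI3 of the embryo list (-0.75 and -1.03) fell in both. Of the 6 mucilage markers SBT1.7 rose (0.66 ± 0.18, adjusted p = 0.019) and GATL5 fell (-0.83 ± 0.28, adjusted p = 0.046) in total RNA. In polysomal RNA 0 of the 6 were called. The summed level of the flavonoid markers was 6.46 to 6.91 at 15 DAP and 5.38 to 5.44 at 20 DAP in total RNA, and the part of these tissues in the alpha-expansin changes was not tested.

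The step from 15 to 18 DAP held the same called genes as that from 15 to 20 DAP, apart from EXPA10. In total RNA EXPA1, EXPA5 and EXPA15 were called lower and 0 of the 10 higher (5.61% and 7.76% of all loci). In polysomal RNA the same 3 were called lower and EXPA3 higher, by 1.3 ± 0.31 (adjusted p = 0.011), against 5.08% and 6.57% of all loci, and EXPA10 had 0.94 ± 0.30 (adjusted p = 0.053). EXPA10 passed there without the dimmest loci (adjusted p = 0.035) and with a prior variance following the level (0.042). EXPA5 fell by 1.19 ± 0.29 in total (adjusted p = 0.012) and by 1.07 ± 0.29 in polysomal RNA (adjusted p = 0.022). In the model over all 24 arrays the calls of EXPA1 in total RNA (adjusted p = 0.072), of EXPA5 in both fractions (0.35 and 0.49) and of EXPA3 (0.18) ended. On quantile values the polysomal calls of EXPA3 and EXPA5 ended (adjusted p = 0.08 and 0.067), as both did without polysomal 18 DAP replicate 1 (0.064 and 0.11). The call of EXPA3 also ended without polysomal 15 DAP replicate 3 (0.065), and that of EXPA5 without polysomal 18 DAP replicate 2 (0.054) or polysomal 15 DAP replicate 1 (0.11) and, in total RNA, without total 18 DAP replicate 1 (0.052) or total 15 DAP replicate 2 (0.055). EXPA4 had -0.75 ± 0.26 in total RNA (adjusted p = 0.07) and passed without the dimmest loci (0.049) or total 15 DAP replicate 3 (-0.92, adjusted p = 0.05).

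Between 18 and 20 DAP no alpha-expansin passed the limma test in either fraction, where it called 0.00719% of all loci in the total fraction and 0% in the polysomal one. At an unadjusted p under 0.05 there was 1 of the 10 in each fraction, against 8.18% of all loci in total and 1.97% in polysomal RNA. These were EXPA9 in total RNA (-0.90 ± 0.39) and EXPA15 in polysomal RNA (0.69 ± 0.23). The polysomal arrays of EXPA15 at 18 and 20 DAP did not overlap, and those of EXPA9 in total RNA did.

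Polysomal and total RNA were then set against each other at each stage. Since arrays were normalized, such a difference compares a transcript with the rest of its array and gives no share of molecules bound to ribosomes. EXPA6 had the same direction at the 3 later stages. Its total RNA levels were 3.26, 3.97 and 4.41 at 15 DAP and its polysomal levels 2.49, 2.34 and 1.9. At 18 DAP they were 3.68, 2.88 and 3.95 in total and 2.3, 2.56 and 2.4 in polysomal RNA, and at 20 DAP 4.06, 3.23 and 3.84, against 2.11, 2.09 and 2.02. No polysomal array reached a total array of its stage. The polysomal means lay at the 23.4th, 31.7th and 21.3rd percentile at 15, 18 and 20 DAP. The total means lay at the 48.3rd, 43.6th and 47.5th, so these are differences between dim signals. EXPA6 was lower in polysomal RNA, with differences of -1.63 ± 0.30 at 15 DAP (limma adjusted p = 0.0011), -1.08 ± 0.30 at 18 DAP (adjusted p = 0.017) and -1.64 ± 0.30 at 20 DAP (adjusted p = 0.0028). No alternative or left-out array ended the calls at 15 and 20 DAP. The call at 18 DAP ended after quantile normalization (adjusted p = 0.18), cyclic loess (0.066) and without polysomal 18 DAP replicate 1 (0.058) or total 18 DAP replicate 3 (0.090).

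EXPA9 was lower in polysomal RNA as well, at 15 and at 18 DAP. Its levels at 15 DAP were 4.01, 4.99 and 4.19 in total and 1.86, 2.53 and 3.01 in polysomal RNA, and at 18 DAP 4.48, 4.17 and 5.46, against 3.36, 3.13 and 2.87. Neither stage overlapped. The differences were -1.93 ± 0.39 at 15 DAP (adjusted p = 0.0020), a 3.8-fold lower level, and -1.59 ± 0.39 at 18 DAP (adjusted p = 0.0088), the second of which lost its call without total 18 DAP replicate 3 (-1.21, adjusted p = 0.055). At 20 DAP EXPA9 had -0.84 ± 0.39 with overlapping arrays (adjusted p = 0.15).

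EXPA2, EXPA8 and EXPA10 were called lower in polysomal RNA at 15 DAP and at no other stage, with the tests of a change between stages given below. The differences at 15 DAP were -1.02 ± 0.30 for EXPA2 (adjusted p = 0.018), -1.14 ± 0.37 for EXPA8 (adjusted p = 0.029) and -0.89 ± 0.30 for EXPA10 (adjusted p = 0.034), without overlap. These 3 calls were the less stable ones. All 3 ended on quantile values (adjusted p = 0.15, 0.16 and 0.12). EXPA8 and EXPA10 also lost theirs after median centring (0.063 and 0.11), in the model over all 24 arrays (0.086 and 0.057) and without polysomal 15 DAP replicate 1, 2 or 3 (0.054 to 0.12). EXPA8 did so under cyclic loess (0.12) and without total 15 DAP replicate 1 (0.087) or 3 (0.054), EXPA10 without total 15 DAP replicate 2 (-0.47, adjusted p = 0.17), and EXPA2 without polysomal 15 DAP replicate 3 (0.086) or total 15 DAP replicate 3 (0.057). EXPA4 had -0.68 ± 0.26 at 15 DAP without overlap (adjusted p = 0.058) and passed without the dimmest loci (0.045), polysomal 15 DAP replicate 1 (0.05) or total 15 DAP replicate 3 (0.04). EXPA2 had -0.68 ± 0.30 at 18 DAP (adjusted p = 0.1) and passed without total 18 DAP replicate 2 (-1.05, adjusted p = 0.014).

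EXPA3 went the other way at 18 DAP, where it was higher in polysomal RNA by 1.04 ± 0.31 (adjusted p = 0.023). Its levels there were 4.74, 4.58 and 3.74 in total and 5.78, 5.49 and 4.9 in polysomal RNA, which did not overlap. The call ended after quantile normalization (adjusted p = 0.1), cyclic loess (0.11), in the model over all 24 arrays (0.18) and without polysomal 18 DAP replicate 1 (0.099) or 2 (0.068) or total 18 DAP replicate 3 (0.13). EXPA1, EXPA5 and EXPA15 showed no called difference between the fractions at any stage. At 15, 18 and 20 DAP their differences lay between -0.28 and 0.38, and the widest 95% intervals reached from -0.89 to 0.98. At 12 DAP the estimates were larger for 2 of them and their intervals wider. EXPA5 had -1.19 ± 0.74 (95% interval of -2.76 to 0.38). EXPA15 had 1 ± 0.51 (-0.08 to 2.08), and its total and polysomal arrays did not overlap. EXPA1 had 0.08 ± 0.53 (-1.03 to 1.19).

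**Figure D4:**
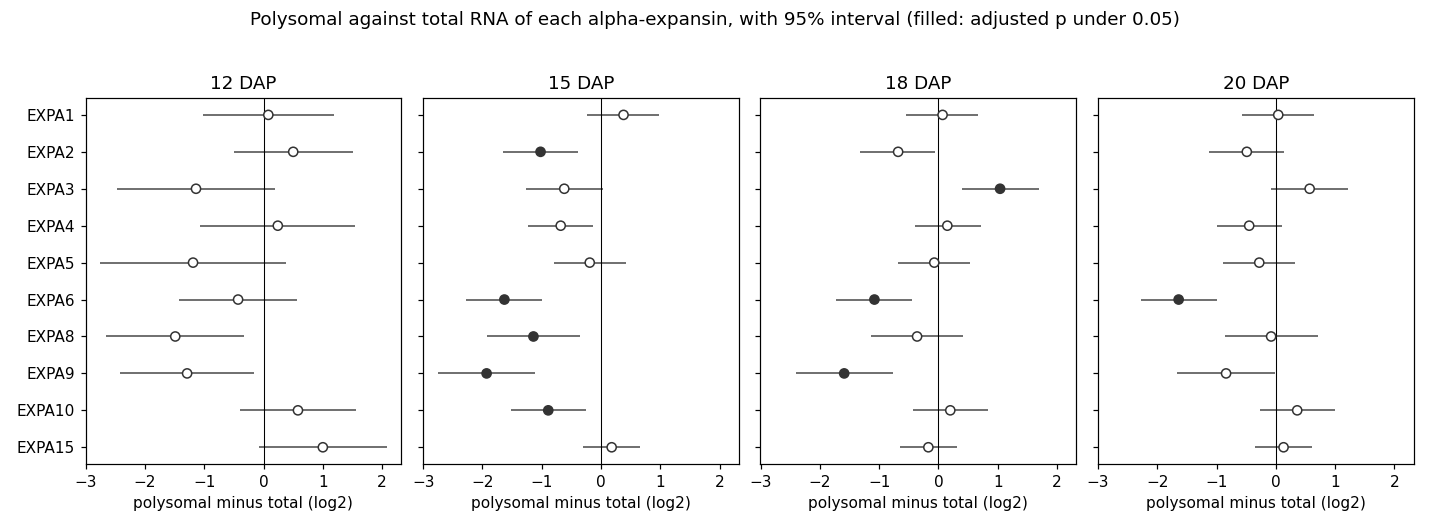
Polysomal minus total level of each alpha-expansin (log2) with its 95% interval from limma, 1 panel per stage, filled where the adjusted p was under 0.05. EXPA6 is filled to the left of 0 at 15, 18 and 20 DAP and EXPA9 at 15 and 18 DAP, EXPA3 is filled to the right at 18 DAP, and no gene is filled at 12 DAP.

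At 15 DAP 5 of the 10 were thus called lower in polysomal RNA and 0 higher, against 13.6% and 17.4% of all loci. At 18 DAP 2 were lower and 1 higher (11.3% and 13.5% of all loci), and at 20 DAP 1 was lower and 0 higher (7.13% and 7.75%). At 12 DAP limma called 0 of the 10 in either direction, where it called 5.65% of all loci. At an unadjusted p under 0.05 there were 2, against 20.8% of all loci. These were EXPA8 with -1.49 ± 0.55 and EXPA9 with -1.29 ± 0.53 (adjusted p = 0.13 and 0.18). In the model over all 24 arrays 3 were called at 12 DAP, namely EXPA8, EXPA9 and EXPA15 (adjusted p = 0.011, 0.024 and 0.019). The median difference of the 10 was -0.18 at 12 DAP, -0.78 at 15 DAP, -0.12 at 18 DAP and -0.18 at 20 DAP, beside 0.11, 0.07, 0.04 and 0.03 over all loci.

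Whether the difference between the fractions itself changed was tested as an interaction of fraction and stage. From 12 to 15 DAP 0 of the 10 passed limma's test (2.9% of all loci did) and 3 had an unadjusted p under 0.05, against 19.4% of all loci. These were EXPA2 (-1.52 ± 0.47, adjusted p = 0.096), EXPA10 (-1.47 ± 0.52, adjusted p = 0.14) and EXPA6 (-1.20 ± 0.51, adjusted p = 0.21). In the model over all 24 arrays EXPA2 and EXPA10 passed (adjusted p = 0.027 for each). From 15 to 20 DAP 0 of the 10 passed (0.0791% of all loci did) and 2 had an unadjusted p under 0.05, against 10.9% of all loci. These were EXPA3 (1.18 ± 0.43, adjusted p = 0.33) and EXPA10 (1.25 ± 0.42, adjusted p = 0.30). The rises of EXPA3 and EXPA10 in polysomal RNA were therefore not shown to differ from their changes in total RNA, and the 95% intervals of that difference ran from 0.26 to 2.1 and from 0.35 to 2.14 before adjustment.

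The courses of the 10 genes over the arrays fell together in part. Over the 18 arrays of 15 to 20 DAP, which share stages and fractions and are given as a description, EXPA15 correlated with EXPA1 and EXPA5 at 0.84 each, and EXPA1 with EXPA5 at 0.78. EXPA9 correlated with EXPA2 at 0.77 and with EXPA6 at 0.72. EXPA10 correlated with EXPA4 at 0.90 over all 24 arrays but at 0.41 over the 18 later ones.

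Other loci with the most similar course were looked up by Pearson's r over the 24 arrays. For EXPA15 they were FAD3, a fatty acid desaturase (0.951, and 0.959 over the 18 later arrays), PDF1, a gene of the outer cell layer (0.95 and 0.974), and LARP1b (0.942 and 0.945). For EXPA10 they were 3 genes of photosynthesis, FBA2, PSBP-1 and LHCB5 (0.97, 0.969 and 0.968), at 0.479, 0.581 and 0.488 over the later arrays. For EXPA1 they were OMT1, WRI1, a regulator of oil synthesis, and PELPK1 (0.946, 0.946 and 0.945), with 0.831, 0.822 and 0.851 later. For EXPA5 they were KCS6, an enzyme of wax synthesis, HAM3 and CIPK7 (0.95, 0.924 and 0.9), with 0.867, 0.877 and 0.607 later. For EXPA6 they were SDG35, ENODL5 and CLF (0.922, 0.895 and 0.886), with values of 0.918, 0.908 and 0.892 over the later arrays. For EXPA9 they were CCD8, AHG11 and PIN7, an auxin carrier (0.924, 0.924 and 0.923), with 0.889, 0.884 and 0.908 later. For EXPA4 they were CHX23, GGPS4 and BAP2 (0.939, 0.937 and 0.934), at 0.404, 0.621 and 0.321 over the later arrays, so that the likeness of EXPA4, as of EXPA10, was much weaker without the 12 DAP arrays. For EXPA2 and EXPA8 the 3 nearest loci had r between 0.907 and 0.931, and between 0.65 and 0.817 over the later arrays. For EXPA3 they had r between 0.801 and 0.821, and between 0.609 and 0.75 later.

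Other genes linked to wall loosening were measured on the same arrays, and their counts stand beside the shares of all loci given above. From 12 to 15 DAP these were 19.4% lower and 20.5% higher in total RNA and 39.4% lower and 29.4% higher in polysomal RNA. Of the 15 other alpha-expansins 8 fell and 0 rose from 12 to 15 DAP in total RNA, with EXPA16 (-2.40 ± 0.36) and EXPA7 (-1.99 ± 0.39) first, and 13 fell and 1 rose in polysomal RNA, with EXPA23 (-4.24 ± 0.34) and EXPA25 (-4.02 ± 0.61) first. Their median change was -1.21 and -1.59, and -0.65 and -0.48 under cyclic loess, which turned the sign of 4 of the 14 polysomal calls. EXPA13 was the riser in polysomal RNA (1.59 ± 0.34, adjusted p = 0.0032), with the opposite sign under cyclic loess (-0.23). It also rose from 15 to 20 DAP in total RNA (1.28 ± 0.23, adjusted p = 0.0012), the only one of the 15 to do so, while EXPA14 fell (-0.94 ± 0.27), a call that ended on quantile values (adjusted p = 0.052). None of the 15 was called from 15 to 20 DAP in polysomal RNA. Of the 10 beta-expansins and expansin-like genes 5 fell in total and 9 in polysomal RNA from 12 to 15 DAP, led by EXPB1 (-2.74 ± 0.43 and -2.25 ± 0.45) and EXPB3 (-1.66 ± 0.44 and -2.30 ± 0.45), and 0 rose, with 3 of the 9 polysomal calls turned in sign under cyclic loess. From 15 to 20 DAP EXPB3 and EXPB4 fell in total RNA (-0.87 ± 0.22 and -0.66 ± 0.16), and 0 of the 10 changed in polysomal RNA.

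XTH genes moved in both directions from 12 to 15 DAP. In total RNA 10 of 33 fell and 3 rose, and in polysomal RNA 26 fell and 3 rose, with 1 and 9 of these calls turned in sign under cyclic loess. Their medians were -0.77 and -1.44, and -0.01 and -0.15 under cyclic loess. XTH24 had the largest fall in each fraction, with -3.93 ± 0.37 in total and -3.85 ± 0.66 in polysomal RNA. XTH11, XTH25 and XTH28 rose in both fractions, by 2.47 ± 0.33, 2.39 ± 0.34 and 2.27 ± 0.45 in total RNA, but under cyclic loess none of the 3 was called and XTH25 had -0.01 in total and -0.40 in polysomal RNA and XTH11 -0.65 in polysomal RNA. From 15 to 20 DAP XTH11 fell in both fractions (-1.64 ± 0.18 and -1.52 ± 0.18) and XTH24 in total RNA (-1.21 ± 0.27). Among the 11 AHA pumps only AHA3 fell in total RNA from 12 to 15 DAP (-2.07 ± 0.36), where 19.4% of all loci did. In polysomal RNA 5 of the 11 fell, where 39.4% of all loci did, led by AHA6 (-1.72 ± 0.46) and AHA10 (-1.68 ± 0.36), calls that all 5 lost under cyclic loess, where 1 also turned in sign and 2 other pumps were called lower instead. AHA2 rose from 15 to 20 DAP in total and polysomal RNA (0.97 ± 0.21 and 1 ± 0.21), as did AHA4 in total (0.84 ± 0.24) and AHA1 in polysomal RNA (0.67 ± 0.16), while AHA11 fell in total RNA (-1.02 ± 0.25). The call of AHA4 ended under cyclic loess (adjusted p = 0.069) and that of AHA1 after median centring (adjusted p = 0.055), and each of these scalings called 2 pumps lower in polysomal RNA.

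Apart from the AHA pumps in total RNA, where cyclic loess called 3 lower in place of 1, these lists lost most of their calls at 15 against 12 DAP under cyclic loess. In polysomal RNA it kept the calls of 4 of the 14 other alpha-expansins called, of 0 of the 9 beta-expansins and expansin-like genes, of 3 of the 29 XTH genes and of 0 of the 5 AHA pumps. Quantile normalization kept 6, 0, 3 and 0 of these calls, and median centring 11, 3, 15 and 2. In total RNA cyclic loess kept 1 of 8, 2 of 5, 3 of 13 and 1 of 1. Of the 7 alpha-expansins described first and called in polysomal RNA, EXPA1, EXPA2, EXPA4 and EXPA10 kept their calls under each of these scalings.

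**Figure D5:**
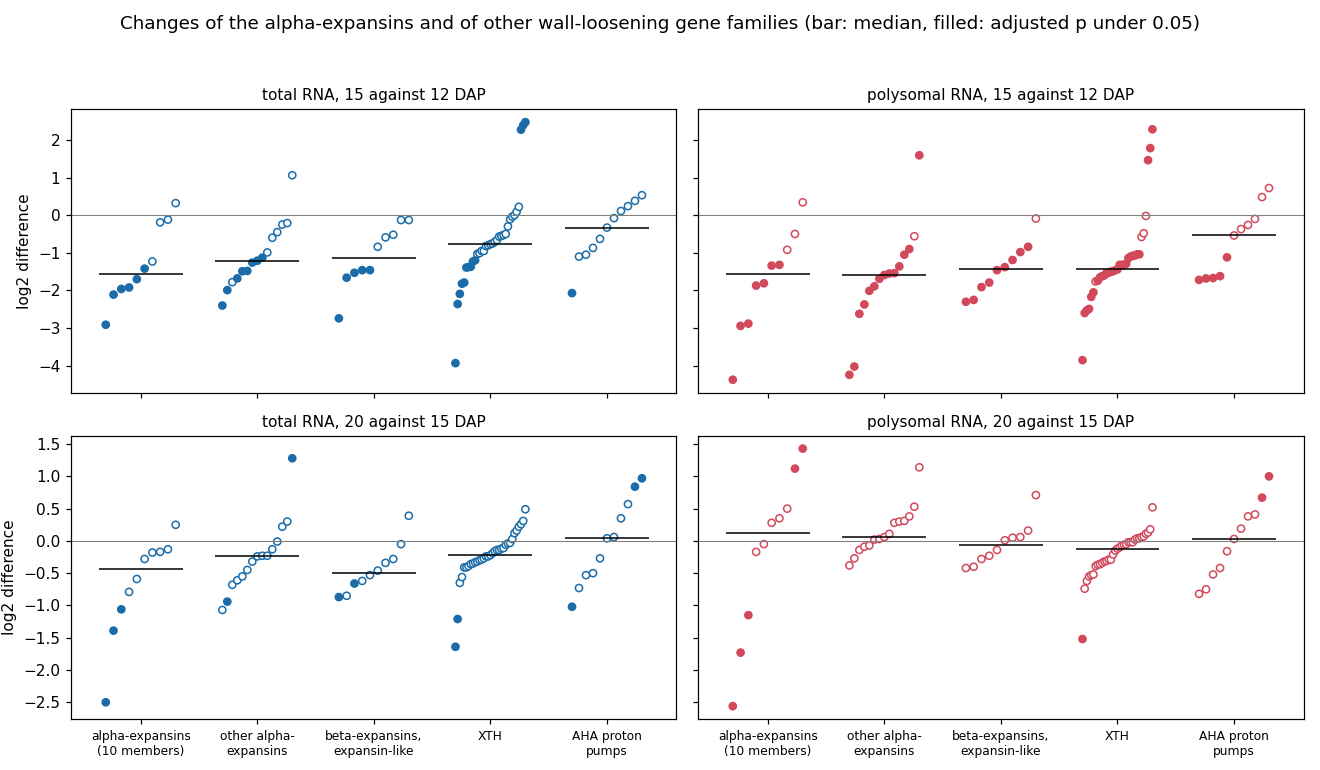
Change of each locus on the log2 scale in the 10 alpha-expansins and 4 other gene lists, with 1 point per locus, a bar at the median and filled points where the adjusted p was under 0.05, for both fractions and for 15 against 12 and 20 against 15 DAP. The medians of the 3 expansin lists lie below -1 at the first step in both fractions and near 0 in polysomal RNA at the second.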

How the data were processed

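The authors deposited a table of log2 values from one-colour arrays, with 1 probe set for each locus, which they made with RMA per the submitters' processing notes, which give no version. RMA subtracts background, normalizes arrays to one another and summarizes probes. The array design, the genome build and which arrays were normalized together are not given in the sources used here, so no coordinates or sequences are printed. Gene symbols came from RefSeq (assembly TAIR10.1), in which 27241 of the locus identifiers were found and 586 were not. None of the members shared its values with another locus.

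For each comparison limma 3.58.1 was run in R 4.3.3 (lmFit and eBayes), without a filter, with Benjamini-Hochberg adjustment over all 27827 loci and a threshold of 0.05. Comparisons with 12 DAP used the compared groups alone (6 arrays, 12 for the interaction), because the 12 DAP arrays vary more. Later ones used 1 model of the 6 groups of 15 to 20 DAP (18 arrays). Members, lists and this design were chosen with earlier results of these data known. All members are named, and of each other list at most the 2 largest called rises and falls of a stage comparison, with XTH28 in total RNA, XTH11 in polysomal RNA and EXPA18 named after their values were seen, and the 3 loci most alike. Same-numbered samples did not deviate together (r of -0.02 to 0.02 between fractions and -0.03 to 0.12 between stages), so replicate numbers were not used as pairs. The p-values measure the spread between these replicates. Alternatives were 1 model over all 24 arrays, repeated quantile normalization, cyclic loess, median centring, leaving out the dimmest loci, the replicate block, a prior variance following the level, and each array left out. The steps were tested on simulated data. Arrays give no count depth, and 3 arrays per group limit the precision.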

Additional observations from a re-analysis of the deposited data

How the results depend on the processing

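With 3 arrays per group, the wider spread at 12 DAP and 5 of the 10 genes among the dimmer loci, these data bound changes loosely, and the scaling of the 12 DAP arrays touches every change from that stage. The changes of single genes were recomputed 980 times under other settings, where 926 kept their call or lack of one, 38 lost a call, 15 gained one and 1 turned, and 960 times with 1 array left out, where the numbers were 912, 41, 7 and 0. Uncalled values on the other side of 0 (33 and 64) are counted as kept. The value that turned was EXPA15 in total RNA at 15 against 12 DAP, with -1.23 under cyclic loess. The count of called alpha-expansins at 15 against 12 DAP was 3 in total RNA under cyclic loess and 4 in polysomal RNA on quantile values. Calls over all loci dropped there too, from 11111 to 4657 and from 19157 to 5543. In 1 model over all 24 arrays the count of alpha-expansins was 3 in polysomal RNA at 20 against 15 DAP, 3 for polysomal against total RNA at 12 DAP and 3 at 15 DAP, 2 for the interaction from 12 to 15 DAP, and 1 in total and 2 in polysomal RNA at 18 against 15 DAP. Calls over all loci in that model, and with 1 array left out, are not given here. For polysomal against total RNA the count was 2 on quantile values and 3 after median centring at 15 DAP, where calls over all loci went from 8643 to 5487 and 11999. It was 1 at 18 DAP both on quantile values and under cyclic loess, where they went from 6887 to 3729 and 3920. On quantile values the count was 2 in polysomal RNA at 18 against 15 DAP (3242 loci called, then 2913). With 1 array left out it ran from 3 to 6 in total RNA at 15 against 12 DAP (3 without total 15 DAP replicate 3), from 2 to 4 for polysomal against total RNA at 15 DAP (2 without polysomal 15 DAP replicate 3) and from 0 to 4 at 18 DAP (0 without total 18 DAP replicate 3), and from 2 to 4 in polysomal RNA at 18 against 15 DAP (2 without polysomal 18 DAP replicate 1). Where these changes have other causes than fewer arrays or the scaling itself, the cause was not tested.

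Replicate numbers were not shown to pair the samples. The replicate block ended no call and added EXPA9 in total RNA at 15 against 12 DAP (adjusted p = 0.035), EXPA4 in polysomal against total RNA at 15 DAP (0.049) and EXPA10 in polysomal RNA at 18 against 15 DAP (0.041). Median centring moved the median difference of all loci in polysomal against total RNA from 0.07, 0.04 and 0.03 at 15, 18 and 20 DAP to 0.351, 0.223 and 0.166. The share of higher calls among all called loci moved with the scaling. At 15 against 12 DAP it was 51.3% in total RNA, 39.5% under cyclic loess and 66.6% after median centring, and in polysomal RNA 42.8%, 56.7% on quantile values and 64% after median centring. At 20 against 15 DAP it was 59.8% in total RNA and 48.4% under cyclic loess, and in polysomal RNA 57.1% and 46.5% after median centring. For polysomal against total RNA it was 56.1%, 54.4% and 52.1% at 15, 18 and 20 DAP, 44.2%, 39.7% and 38.1% under cyclic loess and 78.6%, 72.6% and 68.3% after median centring. For the interaction from 12 to 15 DAP it was 69.1% and 86.9% after median centring, and from 15 to 20 DAP 81.8%, 71.4% on quantile values and 62.5% after median centring.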
